A study of Mus musculus with 6 samples.

Results

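The genes described here are Myc and 33 genes of ribosome production and cell growth, 34 in all of the 43629 genes in the deposited table. They were taken by gene symbol and cover MYC itself, proteins of small nucleolar ribonucleoproteins (snoRNPs), multifunctional nucleolar proteins, RNA polymerase I, assembly factors of the small and large ribosomal subunits, enzymes of polyamine and nucleotide supply, and 3 other growth genes. Every one of the 34 had enough reads to be tested, among 15432 genes tested. The RNA came from leukaemia cells of C57BL/6 mice that carried the Cbfb-MYH11 fusion as a knockin allele, taken at the disease end point and sorted as c-kit+ cells from thawed bone marrow. Gata2+/+ mice (replicates 3, 5 and 6) were compared with Gata2+/f mice (replicates 7, 9 and 11), with 1 library per replicate. All 6 mice carry the fusion, so no library shows the genes in marrow without leukaemia. The labels name neither what the f allele changes nor a Cre line that would act on it. Ages are not given.

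MYC is a transcription factor that pairs with MAX and binds the E-box sequence CACGTG in the promoters of many growth genes. Ribosome production is a classic part of its programme: RNA polymerase I transcribes the ribosomal RNA precursor in the nucleolus, snoRNPs guide its modification and cleavage, and assembly factors fold it with ribosomal proteins into the small and large subunits. In blood progenitors MYC and nucleolar activity are high in cycling cells and go down as granulocytes mature.

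The promoter windows of the members show where the letters of the MYC and MAX site lie. Of the 34 members, 27 had a window in the RefSeq promoter table (GRCm38.p6), which covers 250 bases before and 50 bases after a gene's start. CACGTG reads the same on both strands and was searched as those 6 letters. It was present in 8 of the 27 members (29.6%) and in 2187 of 27025 genes of the table with a window (8.09%). In the 250 bases before the start alone the shares were 3 of 27 (11.1%) and 6.86%. The windows of 30 bases around each match are given below so that the position of the letters can be compared with the expression values that follow, with CACGTG in capitals and each sequence 5′ to 3′ on the strand of its gene.
Nop2, chr6:125131811-125131840, plus strand: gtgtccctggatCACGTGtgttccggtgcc
Imp4, chr1:34439696-34439725, plus strand: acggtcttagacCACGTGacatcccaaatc
Nme1, chr11:93968037-93968066, minus strand: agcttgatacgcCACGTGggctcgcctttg
Nme1, a second start, chr11:93968273-93968302, minus strand: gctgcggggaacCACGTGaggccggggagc
Pes1, chr11:3963965-3963994, plus strand: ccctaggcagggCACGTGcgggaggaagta
Ipo4, chr14:55635653-55635682, minus strand: tgtcggagtctcCACGTGccgatcctcccc
Mybbp1a, chr11:72441347-72441376, plus strand: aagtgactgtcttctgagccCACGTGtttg
Utp20, chr10:88826765-88826794, minus strand: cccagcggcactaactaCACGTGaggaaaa
Wdr43, chr17:71616220-71616249, plus strand: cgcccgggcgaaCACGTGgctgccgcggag

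The match began 60 bases before the start of Nop2 and 121 bases before that of Imp4. Nme1, with 2 annotated starts, had a match 29 bases before 1 of them and 18 bases before the other. In Pes1, Ipo4, Mybbp1a, Utp20 and Wdr43 the match lay within the first 50 bases of the transcript. Nop2 had the smallest p of all members in the genotype comparison, and the 250 bases before its start (chr6:125131633-125131882, plus strand) are shown whole for that reason.
Nop2, before the start: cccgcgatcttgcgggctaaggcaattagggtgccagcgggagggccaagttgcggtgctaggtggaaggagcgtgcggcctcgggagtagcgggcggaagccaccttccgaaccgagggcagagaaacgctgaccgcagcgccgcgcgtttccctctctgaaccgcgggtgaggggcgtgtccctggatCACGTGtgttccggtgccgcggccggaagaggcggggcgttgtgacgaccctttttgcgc

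Among the 27 members with a window, having the letters in it did not go with a larger difference between the genotypes. The 8 members with CACGTG in the window ranged from −0.0039 (Imp4) to 1.07 (Nop2) in log2 fold change, Gata2+/f minus Gata2+/+, with a median of 0.39. The 19 members with a window and no match had a median of 0.73. The 7 members without a window, namely Myc, Fbl, Npm1, Rrp12, Bop1, Rrs1 and Srm, had a median of 0.59. Bases outside the windows were not searched, so a member without a match may hold the letters elsewhere. These are matches of letters, and no binding was measured.

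As a group the members had higher values in Gata2+/f than in Gata2+/+, in 2 of the 3 Gata2+/f leukaemias. The fitted log2 fold change was above 0 for 31 of 34 members, against 51.1% of all tested genes, and its median was 0.59, against 0.019 over all tested genes. No member passed edgeR's quasi-likelihood test at an adjusted p under 0.05 (Benjamini-Hochberg over all tested genes), and neither did any other gene (0% of 15432). At an unadjusted p under 0.05 there were 14 members, all higher in Gata2+/f, where 11.1% of all tested genes were higher and 11.5% lower. In 12 members each Gata2+/f library lay above each Gata2+/+ library, which was so for 13.1% of all tested genes; no member had the opposite order, seen in 16.6% of genes. The 12 became 21 when libraries were scaled by upper quartile factors, which moved the median of all genes from 0.019 to 0.11. DESeq2's Wald test called 8 members at an adjusted p under 0.05, namely Nop2, Nolc1, Nop16, Srm, Mrto4, Nop56, Dkc1 and Nme1, all higher. It called 6.05% of all tested genes as higher and 5.68% as lower. On a simulated data set of this design with 15432 genes, DESeq2 made 69 false calls and edgeR 6. Of simulated 2-fold changes DESeq2 recovered 10.4% and edgeR 1.49%. The changed genes were drawn from all tested genes, so these rates need not be those of the members. The largest fold of a member was 2.29 (Polr1b), so not passing edgeR does not show that a member is unchanged. The p-values set the difference between the genotypes against the spread among the 3 mice within each. The RNA of a sorted population does not separate more RNA per cell from more cells of a kind.

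**Figure D1:**
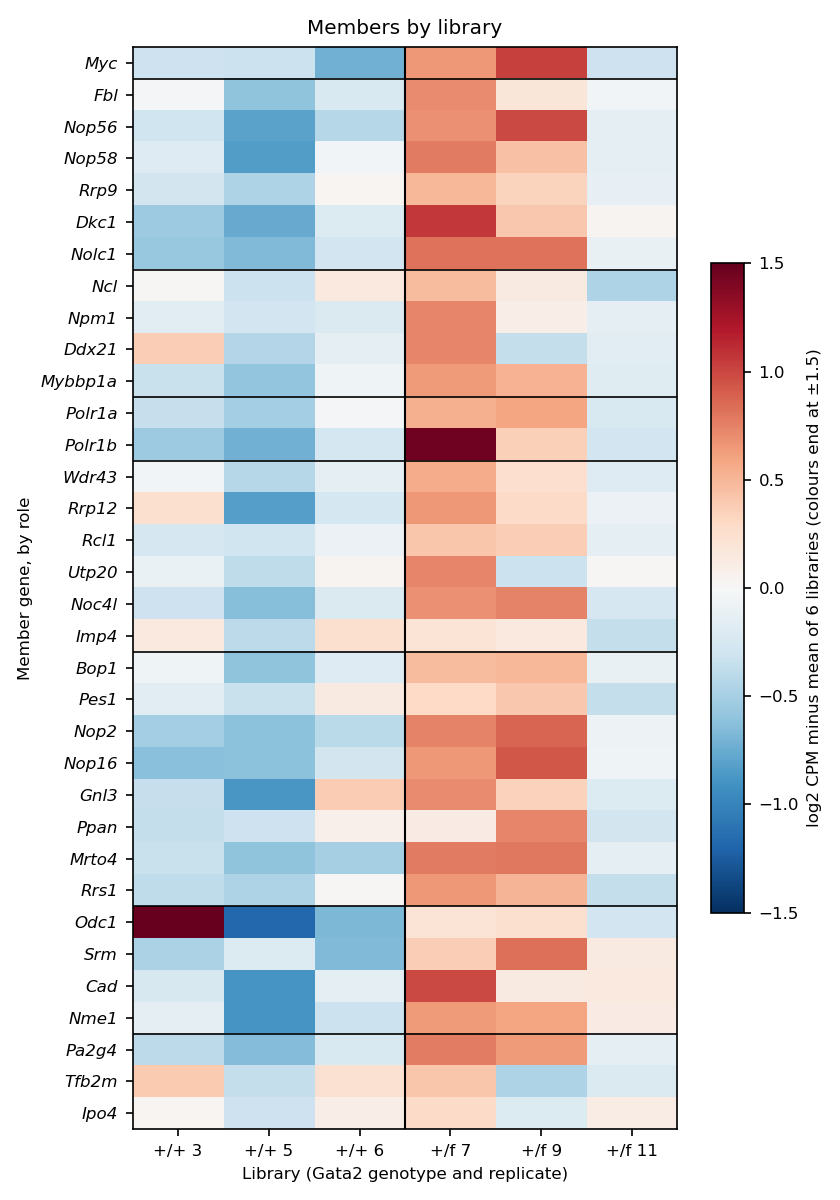
Each row is a member and each column a library, coloured by log2 CPM minus the mean of the 6 libraries, with colours ending at ±1.5 and lines between roles. Gata2+/f replicates 7 and 9 are mostly red, Gata2+/+ replicate 5 is mostly blue, and Gata2+/f replicate 11 is pale with a library median of −0.14.

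The Gata2+/f leukaemias were unlike each other. Levels are given throughout in CPM, counts relative to the TMM-scaled library size. Relative to the Gata2+/+ mean, the median ratio over the members was 1.87 in Gata2+/f replicate 7, 1.70 in replicate 9 and 1.10 in replicate 11. Replicate 7 exceeded every Gata2+/+ library for 32 of 34 members (35.1% of all tested genes), replicate 9 for 26 (37.0%) and replicate 11 for 13 (27.8%). In replicate 11 no member reached 1.5 times the Gata2+/+ mean. Replicate 7 was the highest library for 21 members and replicate 9 for 11. At the other end, Gata2+/+ replicate 5 was the lowest library for 27 members. Without Gata2+/f replicate 11, 24 members had an unadjusted p under 0.05 and were higher (12% of all tested genes), and the groups did not overlap for 28 (22.9%), all higher in Gata2+/f. None of the members passed the adjusted threshold in that fit, where 66 genes did (0.418%).

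Read from Xist and the Y-linked gene Ddx3y, Gata2+/+ replicate 3 and Gata2+/f replicates 7 and 9 were male and the other 3 libraries female. Over the members the median log2 deviation from each gene's mean was −0.27 in the male Gata2+/+ library and 0.65 and 0.40 in the male Gata2+/f libraries. Among the females it was −0.60 and −0.17 in Gata2+/+ replicates 5 and 6 and −0.14 in Gata2+/f replicate 11. With sex as a covariate, an alternative added after the data were seen, the members' median log2 fold change was 0.42. In that fit 8 members were at an unadjusted p under 0.05. The share of all tested genes is not given for it, so the count is not a result about the members alone.

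MYC itself followed that division. Values are given in the order of replicates 3, 5 and 6 for Gata2+/+ and 7, 9 and 11 for Gata2+/f. Myc (ENSMUSG00000022346, GRCm38 chr15:61985391-61990374, plus strand) had 81.1, 80.7 and 61.1 CPM in Gata2+/+ and 158, 205 and 81.6 CPM in Gata2+/f. Replicates 7 and 9 were clearly above the Gata2+/+ range, while replicate 11 exceeded the highest Gata2+/+ library by less than the spread among those libraries. The means were 74.3 ± 11.4 and 148 ± 62.4 CPM (mean ± SD, n = 3 here and below). Its fitted log2 fold change was 0.997 (SE 0.34), and Myc did not pass edgeR's quasi-likelihood test (adjusted p = 0.167) or DESeq2's test (adjusted p = 0.0791). It was 0.68 with sex as a covariate and 1.33 without Gata2+/f replicate 11.

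**Figure D2:**
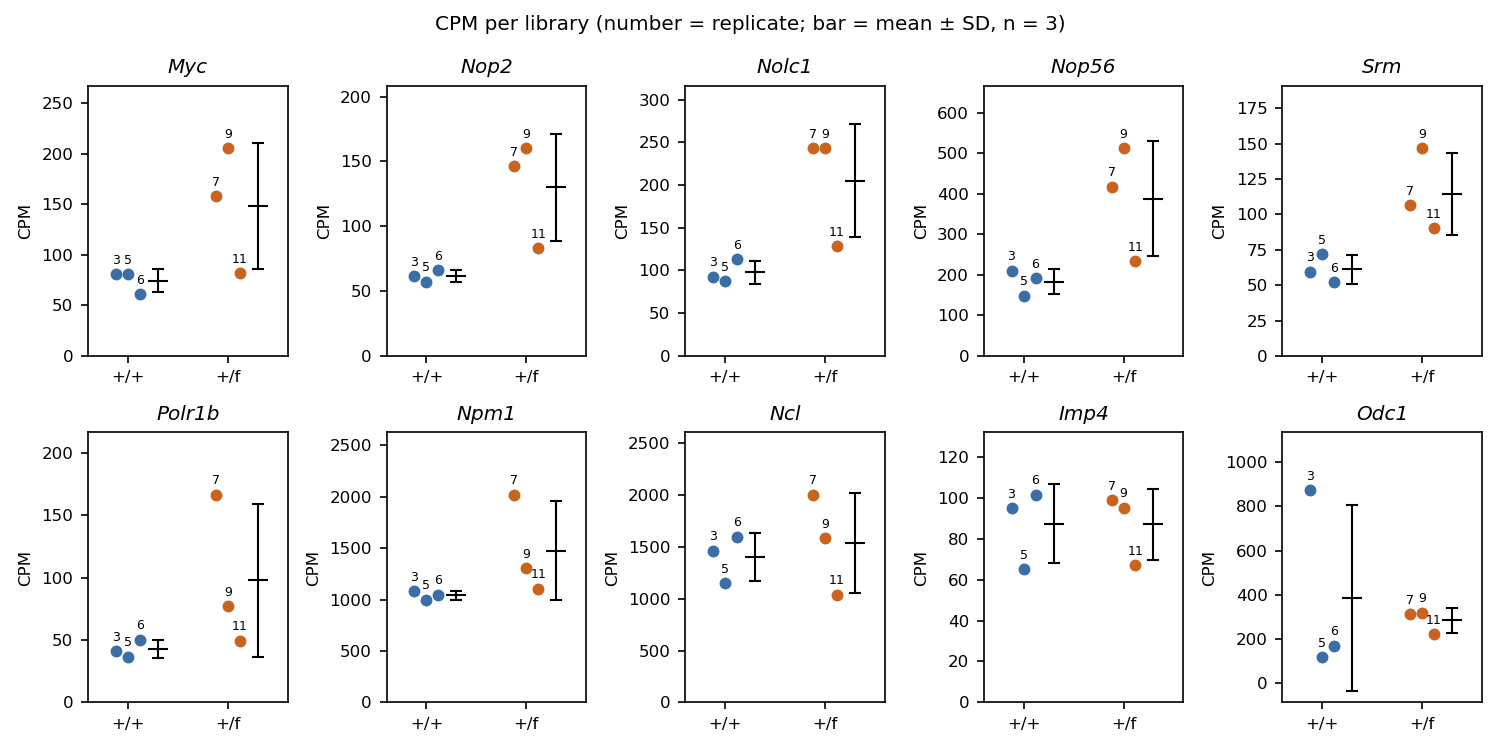
CPM of 10 members in each library, with points numbered by replicate and bars for the mean ± SD (n = 3); the axes start at 0 except for Odc1, where the SD extends below 0. In Myc, Nop2, Nolc1, Nop56 and Srm all 3 Gata2+/f points lie above the Gata2+/+ points, with replicate 11 the lowest of them, while Ncl, Imp4 and Odc1 overlap.

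MYC lies on chromosome 15, as does Bop1, and other genes of that chromosome did not share their pattern. Over 554 tested genes of chromosome 15, the median log2 deviation minus that of all other chromosomes was 0.31, −0.15 and 0.33 in Gata2+/+ replicates 3, 5 and 6 and −0.14, −0.11 and −0.19 in Gata2+/f replicates 7, 9 and 11. The deviations of Myc were −0.32, −0.32 and −0.72 in Gata2+/+ and 0.65, 1.02 and −0.31 in Gata2+/f. Those of Bop1 were −0.07, −0.61 and −0.19, then 0.48, 0.50 and −0.11. In the 2 libraries where chromosome 15 stood highest Myc was below its own mean, and the median log2 fold change of the chromosome was −0.30 against 0.03 elsewhere. Scaling the libraries without the genes of chromosome 15 gave 1.03 for Myc.

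**Figure D3:**
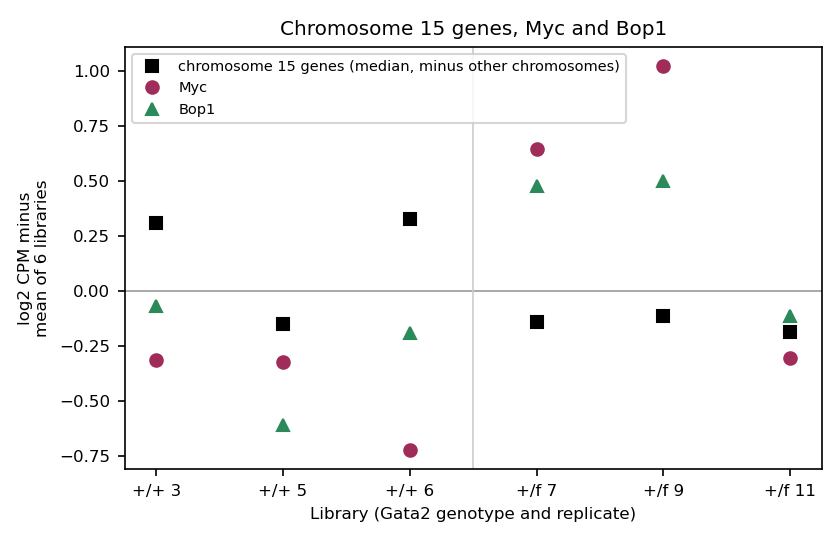
Log2 CPM minus the mean of the 6 libraries for Myc (circles) and Bop1 (triangles), and the median of 554 chromosome 15 genes minus that of other chromosomes (squares), by library. The squares are highest in Gata2+/+ replicates 3 and 6 (0.31 and 0.33), where both genes lie below 0.

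The other genes of the MYC, MAX and MXD network mostly had lower values in Gata2+/f: 8 of 12 were lower, with a median of −0.23. That median was −0.11 when Gata2+/+ replicate 3 or Gata2+/f replicate 11 was dropped, and also with limma voom. Max, the gene of the partner that MYC needs to bind DNA, averaged 100.1 ± 10.6 CPM with 2 wild-type Gata2 alleles and 91.1 ± 8.96 CPM with the f allele (−0.14). Mxd4, which pairs with MAX as a repressor, had 121, 123 and 145 CPM in Gata2+/+ and 67.2, 73.7 and 88.2 CPM in Gata2+/f (−0.76, SE 0.21; DESeq2 adjusted p = 0.0409). Gata2+/+ and Gata2+/f did not overlap for Mxd4, nor for 3 other partners of MAX that were lower, namely Mga (−0.72), Mnt (−0.48) and Mxi1 (−0.35). Mxd3, a family member found in cycling cells, ran the other way with 3.04, 1.84 and 2.90 CPM against 6.47, 8.22 and 6.49 CPM (1.44, SE 0.40; DESeq2 adjusted p = 0.0010). The MYC paralogue Mycl was scarce, at 0.783 ± 0.0540 against 2.20 ± 0.997 CPM (1.49, SE 0.50; DESeq2 adjusted p = 0.0263), and Mycn had 1.24 CPM or less in all libraries (−0.33). Mlx was higher without overlap (0.43), while Mlxip (−0.74), Zbtb17 (−0.10) and Mxd1 (0.17) overlapped. None of the 12 passed edgeR's quasi-likelihood test, the smallest adjusted p being 0.125, and 2 higher and 3 lower genes had an unadjusted p under 0.05.

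The 6 members that form or assemble snoRNPs were all higher in Gata2+/f, with a median of 0.89. Gata2+/f replicates 7 and 9 exceeded every Gata2+/+ library for all 6, and replicate 11 for 3. Nop56, a scaffold protein of box C/D snoRNPs, had 210.2, 148 and 192 CPM in Gata2+/+ and 417, 512 and 233 CPM in Gata2+/f (1.08, SE 0.33; adjusted p = 0.143 by edgeR's quasi-likelihood test, 0.0373 by DESeq2). Dkc1, the pseudouridine synthase of box H/ACA snoRNPs and a part of telomerase, had 68.5, 59.3 and 87.3 CPM against 209.9, 133 and 103 CPM (1.05, SE 0.31; adjusted p = 0.136 by edgeR and 0.0401 by DESeq2). Nolc1, a chaperone that brings snoRNPs to the nucleolus, had 92.9, 87.4 and 113 CPM against 243, 243 and 128 CPM (1.06, SE 0.29; adjusted p = 0.127 by edgeR and 0.0237 by DESeq2). These 3 did not overlap between the genotypes, and in each the lowest Gata2+/f library was replicate 11.

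The remaining snoRNP members overlapped because replicate 11 fell within the Gata2+/+ range. Fbl, the methyltransferase fibrillarin, ranged from 169.8 to 256 CPM in Gata2+/+ and from 252 to 422 CPM in Gata2+/f (0.58). Nop58, the partner of Nop56, ranged from 105 to 181 and from 169.6 to 321 CPM (0.73). Rrp9, which had the largest p of the 6, had 39.5, 34.7 and 48.9 CPM against 67.8, 60.6 and 44.1 CPM (0.49). Among 13 further snoRNP genes that are not members, 12 were higher, with a median of 0.44. Nhp2 (1.10), Ruvbl2 (1.01) and Nop10 (0.93) had the smallest p, and Nhp2 and Nop10 belong to the same H/ACA particle as Dkc1. In that list 5 genes were higher at an unadjusted p under 0.05 and 0 lower, and the groups did not overlap for the same number of 5, all higher.

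The abundant multifunctional nucleolar proteins differed less, with a median of 0.34 over 4 genes. Npm1 (nucleophosmin, a histone and ribosome chaperone that is often mutated in human acute myeloid leukaemia) had 1084, 998 and 1048 CPM in Gata2+/+ and 2019.8, 1305 and 1104 CPM in Gata2+/f (0.50, SE 0.30; adjusted p = 0.346 by edgeR). The groups did not overlap, but replicate 11 was only slightly above the highest Gata2+/+ library. Ncl (nucleolin, which binds ribosomal RNA precursors) overlapped widely, with 1461, 1149 and 1597 CPM against 2002, 1581 and 1040.5 CPM (0.14, SE 0.32; adjusted p = 0.824 by edgeR). Gata2+/f held both its highest and its lowest library, and without replicate 7 the log2 fold change was −0.05. Mybbp1a, a nucleolar regulator of RNA polymerase I, had 252, 210.5 and 303 CPM against 494, 452 and 278 CPM (0.68). The RNA helicase gene Ddx21 (0.18) stood above the Gata2+/+ range in Gata2+/f replicate 7 alone, at 524 CPM, with 248 and 283 CPM in replicates 9 and 11 and 234 to 409 CPM in Gata2+/+. Without replicate 7 its log2 fold change was −0.18.

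Per length of annotated exon, Npm1 was the most abundant member, with a mean of 473 CPM per kilobase over the 6 libraries. The mean was 144 CPM per kilobase for Ncl and 121 for Pa2g4, whose order differed between the genotypes. The length is that of all annotated exons of a gene together, 10188 bases for Ncl and 2804 for Pa2g4. The ranking depends on that length and does not measure the abundance of single transcripts. Utp20 was the lowest, at 5.51 CPM per kilobase. All members were well counted: the lowest count of a member in any library was 1153 (Tfb2m) and the highest 142757 (Npm1).

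The catalytic subunits of RNA polymerase I, which transcribes the ribosomal RNA precursor, were both higher on average. Polr1b had the largest log2 fold change of all members, 1.196 (SE 0.43; adjusted p = 0.176 by edgeR), from 41.3, 36.6 and 50.3 CPM in Gata2+/+ and 167, 77.4 and 49.6 CPM in Gata2+/f. Much of it came from replicate 7, without which it was 0.61, and replicate 11 lay inside the Gata2+/+ range. Polr1a had 91.1, 81.3 and 114 CPM against 168, 175 and 99.1 CPM (0.62, SE 0.28). The 13 other RNA polymerase I genes did not lie higher as a list: 8 were higher and 5 lower, with a median of 0.05, and 0 had an unadjusted p under 0.05. Their smallest p-values belonged to Znrd1 (−0.70), Cd3eap (0.63) and the termination factor gene Ttf1 (−0.42), and the groups did not overlap for 3 genes of the list, all lower.

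Among the 6 members of small subunit assembly, which build the particle that processes the precursor at its small subunit end, 5 were higher and the median was 0.44. Noc4l had 31.5, 25.2 and 33.6 CPM in Gata2+/+ and 62.8, 65.4 and 32.9 CPM in Gata2+/f (0.83, SE 0.31; adjusted p = 0.184 by edgeR). Rcl1 had 34.7, 33.8 and 39.1 CPM against 55.3, 53.5 and 37.9 CPM (0.45). In both, replicates 7 and 9 stood apart from a tight Gata2+/+ group and replicate 11 lay within it. Imp4 had almost the same mean in both genotypes, with 94.9, 65.2 and 101 CPM against 98.7, 95.1 and 66.9 CPM (−0.0039, 95% interval −0.606 to 0.598). Wdr43 (0.43), Rrp12 (0.53) and Utp20 (0.35) overlapped.

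**Figure D4:**
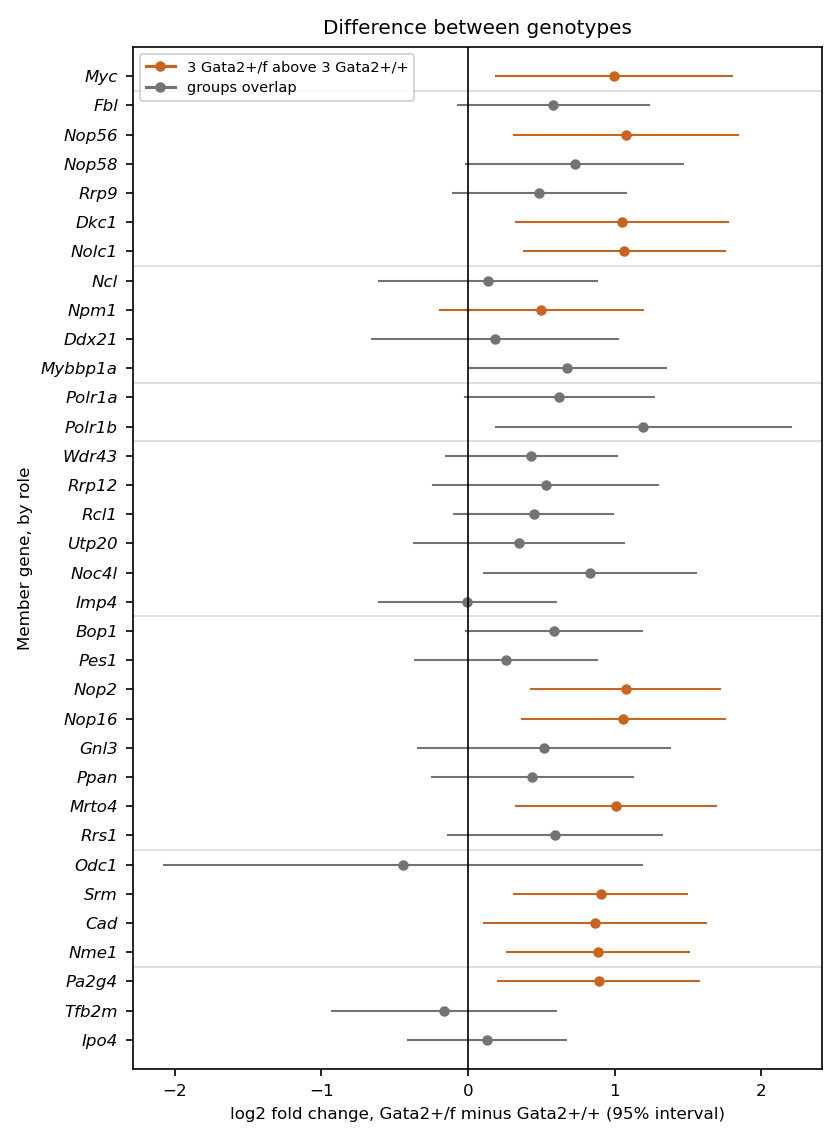
Log2 fold change, Gata2+/f minus Gata2+/+, of each member with its 95% interval from the edgeR fit, ordered by role. Orange marks the 12 members whose 3 Gata2+/f libraries lay above the 3 Gata2+/+ libraries, and the points run from −0.44 (Odc1) to 1.196 (Polr1b).

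All 8 members of large subunit assembly were higher, with a median of 0.59, and 3 of them had no overlap between the groups. Nop2, a methyltransferase of large subunit ribosomal RNA, had 61.6, 57.4 and 66.0 CPM in Gata2+/+ and 146, 160.1 and 83.1 CPM in Gata2+/f (1.07, SE 0.28). Its adjusted p of 0.115 was the smallest of the members by edgeR's quasi-likelihood test, and DESeq2 gave 0.0155. Nop16 had 27.6, 27.9 and 35.2 CPM against 66.9, 81.1 and 40.7 CPM (1.06, SE 0.30; adjusted p = 0.129 by edgeR and 0.0239 by DESeq2). Mrto4, which holds a place on the large subunit until a stalk protein takes it, had 37.3, 30.9 and 33.3 CPM against 80.6, 81.1 and 42.6 CPM (1.01, SE 0.29; adjusted p = 0.134 by edgeR and 0.0312 by DESeq2). In all 3 genes the Gata2+/+ libraries were close together and replicate 11 stood above them. It was at 1.35 times the Gata2+/+ mean for Nop2 and for Nop16 and at 1.26 times for Mrto4.

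Bop1 and Pes1 work in 1 complex. Pes1 had the largest p of the 8, with 145, 129 and 179 CPM against 199.9, 214 and 127 CPM (0.26), so that replicate 11 was its lowest library. Bop1 ranged from 45.0 to 65.4 and from 63.5 to 97.1 CPM (0.59). The difference between these 2 log2 fold changes was not tested. Gnl3 (nucleostemin, 0.52), Ppan (0.44) and Rrs1 (0.59) overlapped too, and Gata2+/+ replicate 6 held the highest Gata2+/+ value of each.

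Assembly genes outside the members showed a smaller difference in the same libraries. Of 103 tested genes in the lists of other small subunit, large subunit and snoRNP factors, 89 were higher in Gata2+/f and the median was 0.38. At an unadjusted p under 0.05 there were 27 higher and 2 lower, against 11.1% and 11.5% of all genes, and 26 were higher and 3 lower without overlap. In the small subunit list Bysl (1.17), Tbl3 (0.84) and Nat10 (0.88) had the smallest p. Bysl had 24.8, 19.1 and 23.2 CPM in Gata2+/+ and 72.8, 43.0 and 35.7 CPM in Gata2+/f. In the large subunit list these were Rrp1b (0.89), Ebna1bp2 (0.86) and Ftsj3 (0.83). Rrp1b was nearly constant in Gata2+/+, at 28.4, 28.4 and 29.9 CPM, and had 60.7, 56.7 and 42.9 CPM in Gata2+/f. The library medians of the 103 genes were −0.14, −0.32 and −0.09 in Gata2+/+ and 0.47, 0.25 and −0.20 in Gata2+/f. Gata2+/f replicates 7 and 9 had the highest medians, as in the members, at smaller values. Gata2+/f replicate 11 lay below Gata2+/+ replicates 3 and 6 here, whereas its median over the members (−0.14) was above that of every Gata2+/+ library. The RNA exosome, which trims ribosomal and snoRNA precursors, had 11 of 14 genes higher (median 0.38), of which 1 had an unadjusted p under 0.05 and 0 had no overlap between the groups. Its smallest p were those of Exosc2 (0.96), Exosc7 (0.66) and Exosc8 (0.67). Leaving out 1 library gave a median between 0.23, when Gata2+/f replicate 7 was dropped, and 0.599, when replicate 11 was.

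Ribosomal proteins, the parts that these factors assemble, did not differ as a list. Of 79 genes 41 were higher and 38 lower, with a median of 0.003, and 1 gene in each direction had an unadjusted p under 0.05. Their library medians were 0.15, 0.03 and −0.16 in Gata2+/+ and −0.01, 0.26 and −0.27 in Gata2+/f, which does not follow the order of the members. Gata2+/f replicate 9 exceeded every Gata2+/+ library for 49 of the 79, replicate 7 for 8 and replicate 11 for 1. Among the lower genes, Rps27 (−0.98) and Rpl30 (−0.58) had the smallest p. Ribosomal protein genes have many processed copies in the genome, and how reads were divided between copies was left to the counting model.

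**Figure D5:**
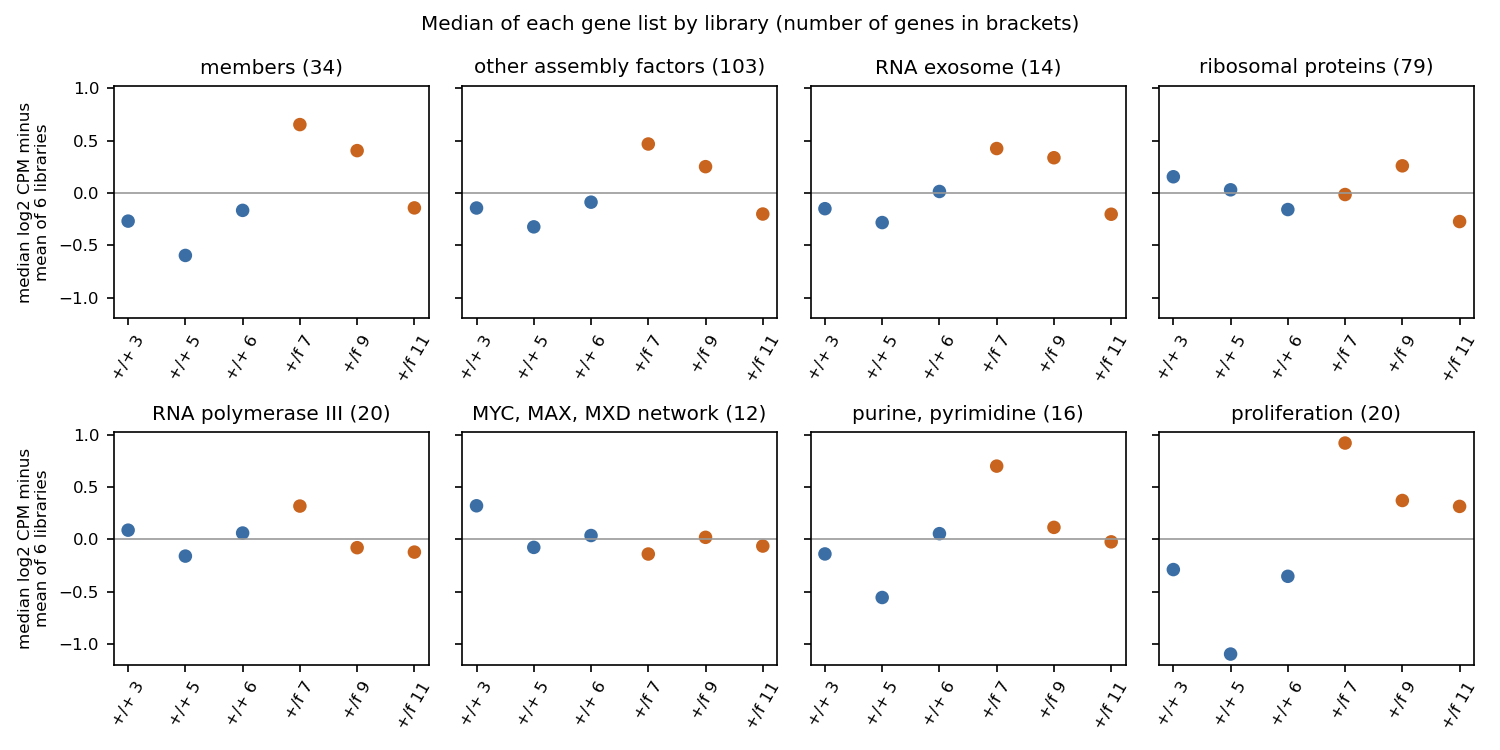
Median over each gene list of log2 CPM minus the mean of the 6 libraries, by library, with Gata2+/+ in blue and Gata2+/f in orange. Members and other assembly factors are highest in Gata2+/f replicates 7 and 9 (0.65 and 0.40, 0.47 and 0.25) and below 0 in replicate 11, while the proliferation list is above 0 in all 3 Gata2+/f libraries.

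The enzymes that supply polyamines and nucleotides gave 3 members with no overlap and 1 that was decided by a single library. Srm (spermidine synthase) had 59.6, 71.8 and 52.1 CPM in Gata2+/+ and 106, 147 and 90.4 CPM in Gata2+/f (0.91, SE 0.25; adjusted p = 0.129 by edgeR and 0.0293 by DESeq2). Nme1 (a nucleoside diphosphate kinase) had 90.7, 54.5 and 80.9 CPM against 156, 152 and 109 CPM (0.89, SE 0.27; adjusted p = 0.138 by edgeR and 0.0477 by DESeq2). Cad, the enzyme of the first steps of pyrimidine synthesis, had 116, 74.2 and 124 CPM against 271, 149.8 and 152 CPM (0.87, SE 0.32; adjusted p = 0.186 by edgeR). For these 3 genes and Dkc1, replicate 11 reached its highest ratios to the Gata2+/+ mean, between 1.43 (Dkc1) and 1.48 (Srm).

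Odc1 (ornithine decarboxylase, a textbook MYC target that makes putrescine) had 873, 119 and 170.3 CPM in Gata2+/+ and 313, 319.9 and 222 CPM in Gata2+/f. Gata2+/+ replicate 3 was far above all other libraries, and the other 2 Gata2+/+ libraries were below all of Gata2+/f. The log2 fold change was −0.44 (SE 0.70) with replicate 3 and 1.03 without it. No other member was highest in that library. Other genes of polyamine and hypusine synthesis had 9 of 13 higher and a median of 0.33, with 0 at an unadjusted p under 0.05. The median was 0.54 without Gata2+/+ replicate 3 and 0.55 when Gata2+/f replicate 11 was dropped, but 0.12 when Gata2+/f replicate 9 was left out or sex was a covariate. Sat1 (−0.62), Amd1 (0.57) and Azin2 (0.90) had the smallest p of that list. Other purine and pyrimidine synthesis genes had 14 of 16 higher, a median of 0.51 and 4 at an unadjusted p under 0.05, among them Umps (0.99), Impdh2 (0.88) and Gart (0.89). Their median was 0.26 without Gata2+/f replicate 7. In this list the groups did not overlap for 3 genes that were higher and for the 2 that were lower.

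Of the 3 other growth genes, Pa2g4 (a nucleolar protein that binds ribosomes) had 242, 202 and 270.3 CPM in Gata2+/+ and 542, 496 and 289 CPM in Gata2+/f (0.89, SE 0.29; adjusted p = 0.156 by edgeR), without overlap. Tfb2m, a transcription factor of mitochondrial DNA, had 34.8, 20.7 and 31.2 CPM against 35.4, 19.3 and 22.8 CPM (−0.16), and its groups overlapped throughout. Ipo4, an importin that carries ribosomal proteins and histones, had 52.2, 41.2 and 54.8 CPM against 62.6, 44.3 and 55.3 CPM (0.13, 95% interval −0.41 to 0.67). RNA polymerase III, which makes the smallest ribosomal RNA and transfer RNAs, had 11 of 20 genes higher and 9 lower. Polr3gl (−0.98) and the repressor gene Maf1 (−0.98, on chromosome 15) were lower and Polr3b (1.10) higher, each without overlap.

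Replicates 7 and 9, which stood apart together, were not alike gene by gene. Replicate 7 exceeded replicate 9 by 2.15 times for Polr1b, 2.11 times for Ddx21, 2.09 times for Utp20, 1.84 times for Tfb2m and 1.81 times for Cad. It was at 0.66 of replicate 9 for Ppan, 0.73 for Srm and 0.77 for Myc. Utp20 had 50.6, 41.8 and 56.0 CPM in Gata2+/+ and 90.5, 43.2 and 55.1 CPM in Gata2+/f, so that replicate 7 alone was above the Gata2+/+ range. Ppan had 70.3, 72.1 and 94.8 CPM against 97.9, 149 and 74.4 CPM, so that replicate 9 was well above the rest. These ratios compare single mice, and these genes were chosen after their values were seen.

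Many members carry snoRNA genes in their own transcripts. GENCODE M21 places 22 snoRNA genes inside 8 of the 34 members (23.5%), against 210 of 12938 tested protein-coding genes (1.62%). Nop56 holds 5, Nop58 4, Ncl, Wdr43 and Gnl3 3 each, Ppan 2, and Dkc1 and Odc1 1 each. The median log2 fold change was 0.48 in these 8 hosts and 0.61 in the other 26 members. Of 8 tested non-coding snoRNA host transcripts 6 were higher, with a median of 0.20 (0.03 to 0.44 with 1 library left out) and 0 at an unadjusted p under 0.05, led by Snhg5 (0.82), Snhg17 (0.57) and Epb41l4aos (−0.46). Exons of 14 members overlap those of another annotated gene, in 10 cases on the opposite strand. Nop56 shares 5 bases with Idh3b, which had 42.0% as many counts as Nop56. Dkc1 shares 45 with Mpp1 (86.5%) and Bop1 50 with Mroh1 (311%). Gnl3 shares 15 with Pbrm1 (131%) and Rrp9 20 with Parp3 (19.0%). These neighbours lie on the opposite strand. The strand setting of the counting is not given, so the values of these members are uncertain. Apart from Nme1, no other member had a neighbour with over 10% as many counts. Ipo4 shares the most, 2583 bases on its own strand with Gm49378, which has no row in the deposited counts. Nme1 shares 418 bases on its own strand with a read-through gene that took 35.3% as many counts as Nme1, so its values are uncertain.

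Markers of other cell types differed between the libraries. Gata2 had 886, 887 and 737 CPM in Gata2+/+ and 498, 273 and 264 CPM in Gata2+/f, and Kit, the gene of the sorted surface protein, was at 826 to 1466 and at 175 to 328 CPM. The 11 mast cell markers include Gata2 and Kit themselves. Their summed level was 12542 to 14664 CPM in Gata2+/+ and 2196 to 5350 CPM in Gata2+/f, with Tpsab1 at 0 in Gata2+/f. That of 11 late neutrophil markers was 152 to 444 and 4003 to 8007 CPM, that of 7 early granulocyte markers 925 to 3299 and 2327 to 11781 CPM, and that of 9 monocyte and macrophage markers 245 to 694 and 844 to 2048 CPM. Erythroid markers summed to 7600 to 10593 and 3843 to 7002 CPM, megakaryocyte markers to 498 to 669 and 24.3 to 130.3 CPM, and dendritic cell markers to 74.7 to 340 and 279 to 647 CPM. Gene by gene, erythroid and megakaryocyte markers were mixed in direction. Of 10 tested erythroid markers 5 were higher and 5 lower (median log2 fold change −0.03), and of 6 tested megakaryocyte markers 3 were higher and 3 lower (median 0.47). B cell markers reached 24.3 CPM and T and NK cell markers 108 CPM at most. All 20 proliferation genes were higher in Gata2+/f (median 1.31), with library medians of −0.29, −1.09 and −0.35 in Gata2+/+ and 0.92, 0.37 and 0.32 in Gata2+/f. Gata2+/f replicate 11 had the lowest member median within Gata2+/f (−0.14). Its late neutrophil median was the highest of the 6 libraries (2.93), against 1.77 and 1.597 in replicates 7 and 9. It was also highest for monocyte and macrophage (1.73), B cell (1.13) and T and NK cell (1.36) markers, but not for the other marker lists. In Gata2+/+ replicates 3, 5 and 6 the late neutrophil medians were −2.72, −0.91 and −2.18. The member medians there were −0.27, −0.60 and −0.17. The part of these markers in the members' differences was not tested. Total counts were between 53789568 and 67854631.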

How the data were processed

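RNA-seq libraries were made from c-kit+ bone marrow of 6 leukaemic mice, 3 per genotype; per the labels' protocols they were poly-A selected and stranded. The values deposited by the authors are expected counts per Ensembl gene with no normalization, made with CASAVA 1.8.2, STAR 2.5.4a and RSEM 1.3.0 on GRCm38, per the submitters' processing notes. The annotation release and the strand setting of the counting are not given in the sources used here, which leaves values of genes with an antisense neighbour uncertain. Symbols and positions came from GENCODE M21 (97.3% of IDs matched), and promoter sequences from RefSeq.

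Expected counts were rounded, genes were kept by filterByExpr (minimum count 10), and libraries were scaled by TMM. The groups were compared with edgeR 4.0.16 (quasi-likelihood test in its legacy form, two-sided, no covariate; R 4.3.3), with Benjamini-Hochberg adjustment over all 15432 genes and a threshold of 0.05. CPM include the TMM factors, and library deviations use log2 CPM with a prior count of 2. The tests were checked on simulated data. Lists are described by counts and medians, beside the same over all tested genes. Alternatives were DESeq2 1.42.0, limma 3.58.1 (voom), edgeR's newer test, other scalings, filters and thresholds, leaving out each library, and the promoter bases before the start alone; sex as a covariate was added after the data were seen.

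The members and lists were chosen with earlier results of these data known. Values in every library are given for Myc, members whose groups do not overlap, the 2 smallest and the largest p of each role, and members with a negative log2 fold change; the 3 smallest p of each pathway list and the whole MYC, MAX and MXD network are named, except 1 gene that is not reported here. Other genes were chosen after their values were seen.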

Additional observations from a re-analysis of the deposited data

How the results depend on the processing

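The members' median log2 fold change stayed above 0 in every alternative, between 0.42 with sex as a covariate and 0.84 without Gata2+/f replicate 11. Myc lay between 0.68 and 1.33 and passed the adjusted threshold in none of them. No member passed in any alternative but DESeq2, which called 8. Over all genes the count of 0 became 1809 with DESeq2, 9 with limma voom, 32 with edgeR's newer test, 19 without a filter beyond 1 count, 444 at an adjusted p under 0.1 and 9 with sex as a covariate. It was 0 to 66 when each library was left out in turn, with 66 without Gata2+/f replicate 11. Members without overlap numbered 12 and became 21 with upper quartile factors and 17 with RLE factors. Leaving out each library in turn gave 11 to 28. The count was 20 or 24 when Gata2+/+ replicate 3 or 6 was dropped, and 19 or 28 when Gata2+/f replicate 9 or 11 was. Fewer libraries overlap less by construction. Over all tested genes the share without overlap and higher was 13.1% in the main fit and 22.9% without Gata2+/f replicate 11. It is not given for the other settings, so their counts are not a result about the members alone. The 14 members at an unadjusted p under 0.05 became 9 when Gata2+/+ replicate 5 was dropped, 24 when Gata2+/f replicate 11 was, and 8 with sex as a covariate. Of all tested genes, 11.1% were higher at that p in the main fit and 12% without Gata2+/f replicate 11. That share is not given for the other settings either, so the same limit holds for their counts. The share of members with CACGTG was 11.1% in the bases before the start, against 6.86% of all genes.

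Of 34 members, 5 changed sign somewhere, and the cause was not tested. Imp4, near 0 throughout, became 0.0027 with DESeq2, 0.0010 with voom, 0.0027 with RLE factors, 0.101 with upper quartile factors, 0.035 with TMM factors set without chromosome 15, 0.0015 without a filter and 0.0126 with the 1 CPM filter. Leaving out each library in turn gave −0.182 to 0.197 for Imp4, −0.881 to 1.03 for Odc1 (1.03 without Gata2+/+ replicate 3), −0.412 to 0.064 for Tfb2m, −0.0544 to 0.397 for Ncl and −0.176 to 0.483 for Ddx21 (both lowest without Gata2+/f replicate 7). Odc1 became 0.107 with voom, and Ncl −0.053 with sex as a covariate. List medians near 0 turned as well. With a library left out they ran from −0.0803 to 0.185 for ribosomal proteins, −0.0722 to 0.22 for other RNA polymerase I genes and −0.0349 to 0.205 for RNA polymerase III. With voom the median of ribosomal proteins was −0.0055. With sex it was −0.117, and that of RNA polymerase III −0.0343.

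These comparisons rest on 3 mice a group with 1 library each, and the lowest count of a member in any library was 1153. No paired analysis was possible because the groups share no replicate numbers.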
